A study of Mus musculus with 6 samples.

Results

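Tight junctions are belts of membrane strands that seal the space between neighbouring epithelial cells and set how ions and solutes pass between them. The strands are built of claudins, with occludin beside them, and scaffold proteins tie them to the actin cytoskeleton. In the uterus such junctions ring the cells of the luminal and glandular epithelium, where they separate the fluid of the lumen from the stroma. Described here are the epithelial claudins Cldn1, Cldn2, Cldn3, Cldn4 and Cldn7, the strand protein Ocln (occludin) and the scaffold Tjp1 (ZO-1). Every probe set whose annotation names one of these 7 genes as its only gene was taken, which gave 10 of 12422 non-control probe sets and 7 of 8251 genes. Of the 10, 8 were analysed because they lay above the floor of 6.60 log2 units on at least 2 of the 6 arrays, and these 8 covered all 7 genes.

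RNA came from whole uterus of ovariectomized female 129/SvImJ wildtype mice, an inbred strain, aged 10 to 16 weeks. One array each was made of uninjected mice 14 days after ovariectomy (0 h) and of mice killed 6, 12, 15, 18 and 24 h after progesterone (0.2 mg under the skin, in sesame oil, 0.1 mL). Each array held a pool of 8 uterine horns from 4 mice, so no time had a replicate, and all animals lacked ovarian hormones of their own. No array of oil alone was analysed here, and all differences from 0 h share the one uninjected array. The design follows the uterus over 24 h after 1 injection of the hormone, and effects of the hormone, the oil and the injection cannot be told apart.

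Array medians lay between 7.12 and 7.22 log2 units. Across the analysed probe sets the 0 h array correlated with the progesterone arrays at 0.94 to 0.95, and the progesterone arrays correlated with each other at 0.96 to 0.99. Of 28 control probe sets above the floor on all arrays, 9 were lower and 4 higher than at 0 h on all 5 progesterone arrays. Among the analysed probe sets 27.2% were lower and 20.4% higher on all 5. The part of the controls in the results below was not tested.

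The 5' flanks of 3 of the genes are shown because Cldn3 and Tjp1 had the largest mean differences from 0 h in each direction, and because Cldn2 was the only one of the 7 genes whose flank held the hexamer TGTTCT. Progesterone and glucocorticoid receptors bind this hexamer, best as a palindrome with its inverted copy. Each stretch is the 250 bases before the transcript start in RefSeq (GRCm38.p6), 5' to 3' on the gene's strand. Capitals mark the hexamer TGTTCT and the GC box GGGCGG, each in either orientation.
Cldn2, chrX:139800558-139800807, plus strand: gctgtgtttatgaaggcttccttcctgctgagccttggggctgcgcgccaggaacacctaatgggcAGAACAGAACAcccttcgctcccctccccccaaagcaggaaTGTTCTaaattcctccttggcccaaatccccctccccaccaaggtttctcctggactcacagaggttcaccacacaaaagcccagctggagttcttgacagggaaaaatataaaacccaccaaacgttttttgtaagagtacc
Cldn3, chr5:134985964-134986213, plus strand: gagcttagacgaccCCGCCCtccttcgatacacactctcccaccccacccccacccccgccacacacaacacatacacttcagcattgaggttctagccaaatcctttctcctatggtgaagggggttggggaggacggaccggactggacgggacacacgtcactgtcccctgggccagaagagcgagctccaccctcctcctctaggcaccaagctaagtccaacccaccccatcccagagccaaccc
Tjp1, chr7:65371245-65371494, minus strand: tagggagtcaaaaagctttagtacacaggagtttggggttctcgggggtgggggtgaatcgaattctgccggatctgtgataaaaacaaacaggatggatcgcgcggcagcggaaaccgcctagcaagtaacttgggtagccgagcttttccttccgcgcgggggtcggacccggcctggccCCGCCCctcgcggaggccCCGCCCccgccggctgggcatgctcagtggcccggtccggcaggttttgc

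The Cldn2 flank held 3 such hexamers, counted where they overlap too. Of 32851 such flanks in the table, several per gene where transcripts start at different places, 16.1% held at least 1 hexamer. Of the 9 flanks of these genes 1 did. The share of all with 3 or more was 0.189%, a cut equal to the count in Cldn2, which was shown because it held the hexamer. The palindrome, with its usual spacing, was in 0 of the 9 flanks of these genes and in 3 of the 32851. The GC box, a site of Sp and Klf family factors, was in 7 of the 9 flanks (2 of them, both of Ocln, overlap each other) and in 32.7% of all. The Tjp1 flank lies inside the bounds of the annotated gene. In the same annotation Cldn4 and Cldn3 are neighbours with 0 protein-coding genes between them. A match is a run of letters in this window and says nothing of binding.

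None of the 7 genes passed the threshold in the 3 fits on all their arrays, and with single arrays left out only Tjp1 did, without the 6 h array. Cldn3 had the highest mean difference from 0 h, and Tjp1 the lowest. Cldn3 was higher on all 5 progesterone arrays on its main probe set and Tjp1 was lower on all 5, while Cldn2, Cldn4, Cldn7 and Ocln lay on both sides of their 0 h value. No gene reached a 2-fold difference at 6, 12, 15, 18 or 24 h, where 2.51%, 3.57%, 3.63%, 2.95% and 2.45% of all probe sets did. In this and later shares, all probe sets means those analysed and tested. The main test was limma over all probe sets, comparing the mean of the 5 progesterone arrays with the 0 h array, with the spread taken from the progesterone times and the lone 0 h array assumed to vary like them. It called 0 of the 8 probe sets at an adjusted p under 0.05, where 2.69% of all probe sets were called, and 2 of the 8 had an unadjusted p under 0.05, where 19.0% of all did. The 2 were those of Cldn3 and Tjp1.

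Cldn3 is a strand claudin of many barrier-forming epithelia and a receptor for an enterotoxin of Clostridium perfringens. Its main probe set (94493_at) stood at 11.21 log2 units at 0 h and at 11.71, 11.76, 11.57, 11.46 and 11.67 at 6, 12, 15, 18 and 24 h. All 5 progesterone arrays lay above the 0 h array without overlap, which 20.4% of all analysed probe sets also showed. The progesterone arrays averaged 11.64 ± 0.12 (SD over the 5 times), against 11.21 at 0 h, a mean log2 difference of 0.43 ± 0.13 (SE, limma; 95% interval 0.12 to 0.74) with an unadjusted p of 0.0118 and an adjusted p of 0.129. The other probe set of Cldn3 (162315_f_at), whose suffix marks probes shared with similar sequences, stood at 7.18 at 0 h and at 7.98, 7.67, 7.58, 7.11 and 7.68 at the later times. Here the 18 h array was just below the 0 h array and the other 4 were above it. Its mean difference was 0.43 ± 0.27 (limma, adjusted p = 0.448), close in size to that of the main probe set but with an interval from -0.19 to 1.04. At 6 h it was 0.80 above 0 h, the only case in which 1 of the 8 probe sets was at least 1.5-fold higher at any time, and 4.52% of all probe sets were so at 6 h. At 12, 15, 18 and 24 h the shares of all probe sets that much higher were 6.77%, 8.05%, 4.44% and 4.78%.

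Cldn4, the genomic neighbour of Cldn3 and likewise a receptor for the enterotoxin, varied least of the probe sets above the floor. It stood at 7.82 log2 units at 0 h and at 7.98, 8.00, 8.05, 7.81 and 7.89 at 6, 12, 15, 18 and 24 h. The arrays at 6 to 15 h and at 24 h were above 0 h and that at 18 h just below it, within a span of 0.24. The mean difference was 0.13 ± 0.14 (limma, adjusted p = 0.687), with an interval from -0.19 to 0.46.

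Cldn7, a claudin also found along the lateral membrane of epithelial cells, was highest at 12 h. Its values were 8.50 log2 units at 0 h and 8.51, 9.003, 8.84, 8.33 and 8.61 at 6, 12, 15, 18 and 24 h. The differences from 0 h were 0.50 at 12 h, 0.34 at 15 h and -0.18 at 18 h, so the progesterone arrays lay on both sides of 0 h. The mean difference of 0.15 ± 0.24 (limma, adjusted p = 0.79; interval -0.40 to 0.70) was smaller than the spread between times. The probe set carries the same suffix for shared probes.

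Cldn2 forms a channel for cations and water, in contrast to the sealing claudins. It was highest at 6 h, with 7.70 log2 units at 0 h and 8.04, 7.90, 7.63, 7.67 and 7.76 at 6, 12, 15, 18 and 24 h. The arrays at 15 and 18 h were slightly below 0 h and the other 3 above it. The mean difference was 0.10 ± 0.18 (limma, adjusted p = 0.815; interval -0.31 to 0.51).

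Cldn1, the claudin of the epidermal barrier, was near or below the floor throughout. Its values were 6.30 log2 units at 0 h and 6.02, 6.61, 6.65, 6.67 and 6.01 at 6, 12, 15, 18 and 24 h, of which those at 12, 15 and 18 h were above the floor. The test saw values raised to the floor, and its mean difference of 0.03 ± 0.09 (limma, adjusted p = 0.903) therefore understates its changes between times. A further probe set of Cldn1 and one of Tjp1 were at the lower limit of 5.39 on all 6 arrays and give no difference.

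**Figure D1:**
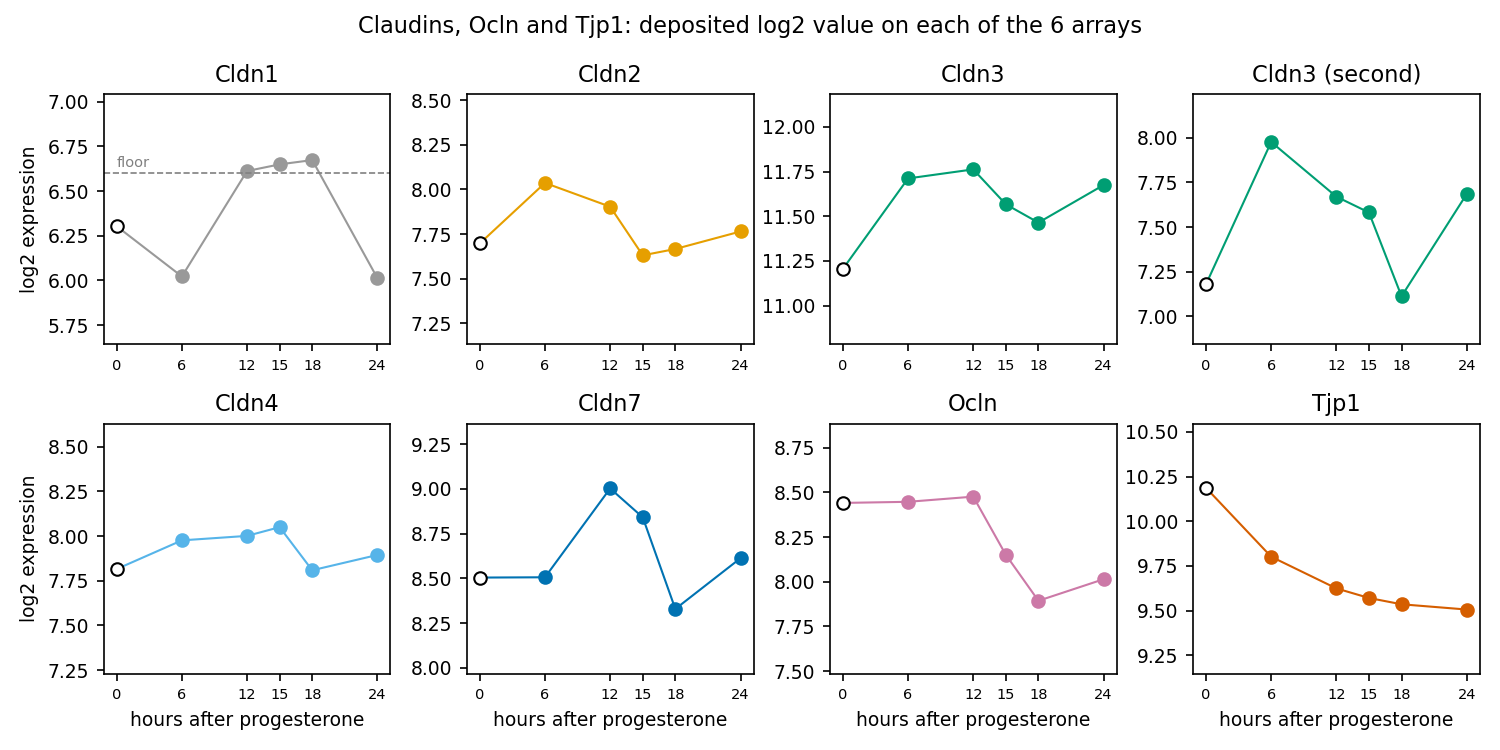
Deposited log2 expression (vertical axes, each spanning the same number of log2 units) of the 8 analysed probe sets against hours after progesterone, with 1 array per time; the open point is the uninjected 0 h array and the filled points are the progesterone arrays. Tjp1 is lower at each time than at the one before, Cldn3 lies above its 0 h value at all 5 later times on its main probe set, and both Cldn3 panels, Cldn4, Cldn7 and Ocln have their lowest progesterone value at 18 h.

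Ocln, a membrane protein of the strands that binds the scaffolds, held its 0 h level until 12 h and was lower from 15 h on. Its log2 values were 8.44, 8.45 and 8.48 at 0, 6 and 12 h and 8.15, 7.89 and 8.01 at 15, 18 and 24 h. The arrays at 18 and 24 h lay below all 4 earlier ones, as they did for 12.3% of the probe sets above the floor on all arrays. In a limma fit over hours on the 5 progesterone arrays, which does not rest on the 0 h array, the slope was -0.75 ± 0.27 log2 units per 24 h (95% interval -1.37 to -0.14), with an unadjusted p of 0.0228 and an adjusted p of 0.162. In the fit over all 6 arrays it was -0.57 ± 0.20 per 24 h (limma, adjusted p = 0.229). Against 0 h the mean difference was -0.24 ± 0.23 (limma, adjusted p = 0.644).

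Tjp1 binds claudins through its PDZ domains and actin through its tail. Its values ran from 10.19 log2 units at 0 h through 9.80, 9.62, 9.57 and 9.54 at 6, 12, 15 and 18 h to 9.51 at 24 h. Each array was below the one before it, and the largest single drop was that between 0 and 6 h, of 0.39. The progesterone arrays averaged 9.61 ± 0.12 (SD over the 5 times), against 10.19 at 0 h, a mean log2 difference of -0.58 ± 0.14 (SE, limma; interval -0.91 to -0.25) with an unadjusted p of 0.0035 and an adjusted p of 0.0762. A 0 h array above all 5 later arrays was shared by 27.2% of analysed probe sets. The difference was over 1.5-fold at 15, 18 and 24 h, where 5.71%, 6.83% and 4.95% of all probe sets were that much lower, as were 5.82% at 6 h and 5.98% at 12 h. The call turned on a single array: without the 6 h array the mean difference was -0.63 and the adjusted p was 0.0213, while without 12, 15, 18 or 24 h the adjusted p was 0.188, 0.17, 0.155 and 0.11 (limma). Without the 6 h array limma called 590 of all analysed probe sets, against 208 with it.

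In the fits over hours no probe set of the 7 genes passed the threshold. Over all 6 arrays limma called 0 of the 8 probe sets, where 0.31% of all were called, and 2 of the 8, those of Ocln and Tjp1, had an unadjusted p under 0.05, where 16.2% of all did. Tjp1 had a slope of -0.66 ± 0.16 per 24 h (limma, adjusted p = 0.116), which was -0.39 without the 0 h array and ranged from -0.85 to -0.39 with each array left out in turn. Over the 5 progesterone arrays 0 of the 8 were called, where 1.9% of all were, and 1, Ocln, had an unadjusted p under 0.05, where 21.4% of all did. Both Cldn3 probe sets and Cldn2, Cldn4 and Cldn7 had slopes below 0 in that fit, between -0.57 and -0.14 per 24 h, with adjusted p from 0.37 to 0.883 (limma). Single arrays decided their size: the slope of the second Cldn3 probe set was -0.037 without 6 h and -1.58 without 24 h, and that of Cldn2 was -0.15 and -0.84. That of the main Cldn3 probe set was -0.083 without 18 h and -0.51 without 24 h. Cldn4 had -0.11 without 18 h and -0.30 without 6 h, and Cldn7 0.033 without 12 h and -0.85 without 6 h.

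Of the 7 genes 4, namely Cldn3, Cldn4, Cldn7 and Ocln, had their lowest progesterone value at 18 h. Cldn2 was lowest at 15 h and Tjp1 at 24 h, and Cldn1, near the floor, was highest at 18 h. Of the 7 probe sets above the floor on all arrays, 5 were lowest at 18 h, both of Cldn3 among them, where 26.6% of all such probe sets were. Of 13 epithelial marker genes 8 had theirs at 18 h too, and the part of the epithelium in this was not tested. From 15 to 18 h Cldn7 was lower by a log2 difference of -0.51, the Cldn3 probe sets by -0.47 and -0.10, Ocln by -0.26 and Cldn4 by -0.24. At 24 h each of them was above its 18 h value, by 0.09 to 0.57. Both directions follow from taking the genes that were lowest at 18 h, and only the sizes are described. Across the 6 arrays the 7 probe sets made 21 pairs, and 9 of them had a Pearson correlation above 0.5. The share of such pairs among all probe sets was not computed, so no shared pattern is read from this count. The highest values were 0.82 between both probe sets of Cldn3, 0.79 between Cldn4 and Cldn7 and 0.77 between Cldn2 and the second probe set of Cldn3, and the lowest was -0.68 between Cldn3 and Tjp1. These correlations describe 6 arrays that share their 0 h array and carry no test.

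The claudins were set beside markers of the epithelium that makes them. Of 18 epithelial marker genes 15 were on the array and 13 were analysed. All 13 were lower than at 0 h at all 5 times, as were 27.2% of all analysed probe sets. Spint2 and Cdh16 were on the array and were not above the floor on enough arrays to be analysed. Of the 13 analysed, 3 fell in the test against 0 h and 0 rose, where 2.69% of all probe sets were called. Epcam, an adhesion protein of epithelial cells, had a mean log2 difference of -1.12 ± 0.14, Krt18, a keratin of simple epithelium, one of -1.03 ± 0.16 and Dsp, the desmosome plaque protein desmoplakin, one of -0.88 ± 0.16 (SE, limma, adjusted p = 0.0104, 0.0237 and 0.0308). Krt7, another keratin, did not pass that test but fell over hours in the fit on 6 arrays (slope -1.51 per 24 h, limma, adjusted p = 0.0465). That fit called 0.31% of all probe sets. The markers' median difference was -0.75, -0.62, -0.51, -0.80 and -0.59 at 6, 12, 15, 18 and 24 h. The median over the 7 genes of the junction was 0.01, 0.19, 0.05, -0.03 and 0.07 at the same times, and that over all analysed probe sets lay between -0.05 and 0.03. The summed linear level of the 13 markers was 9888 to 11560 on the progesterone arrays, lowest at 18 h, against 16465 at 0 h. That of the 7 junction genes was 4657 to 5725 on the progesterone arrays, also lowest at 18 h, and 4768 at 0 h. Cldn3 and Tjp1, with 11.21 and 10.19 log2 units at 0 h, were the highest of the 7 and make up most of this sum. In RNA of a whole organ, fewer cells of a type and less RNA per cell cannot be told apart, and the part of the epithelial share in these values was not tested.

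Set against the marker median at each time, the claudins and Ocln were above it at all 5 times. Cldn1, with values near or below the floor, was so by 0.30 to 1.17. The main probe set of Cldn3 lay 0.87 to 1.25 log2 units above the markers, the second 0.73 to 1.54, Cldn7 0.62 to 1.11, Cldn4 0.66 to 0.91 and Cldn2 0.44 to 1.09. Ocln lay 0.75 above them at 6 h and 0.16 above them at 24 h. Tjp1, which many cell types other than epithelium also express, lay 0.36 above them at 6 h and between -0.11 and 0.15 from them later. Single markers had mean differences from 0 h of -1.12 to -0.30, next to -0.24 for Ocln. The difference between the junction genes and the markers was not tested.

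**Figure D2:**
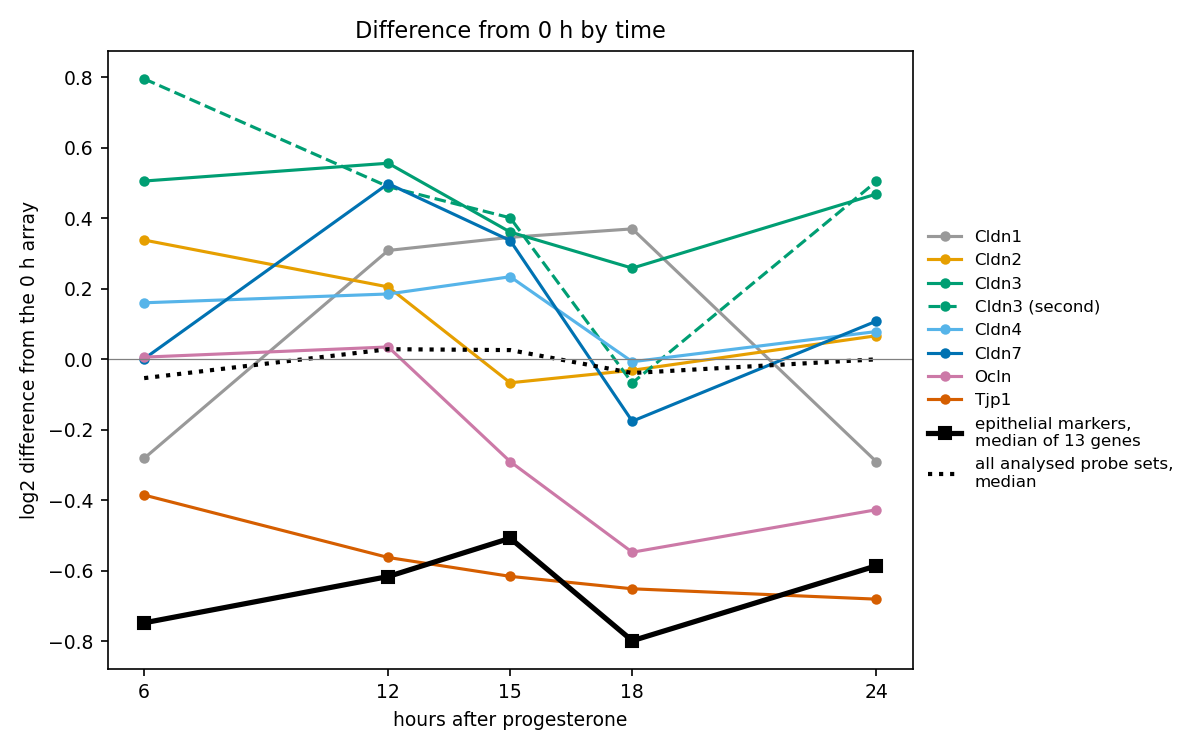
Log2 difference from the 0 h array (vertical axis) at 6 to 24 h after progesterone (horizontal axis) for each analysed probe set, with the median of 13 epithelial marker genes (black squares) and of all analysed probe sets (dotted). The claudin lines lie between -0.29 and 0.80, above the marker median of -0.80 to -0.51, while Tjp1 ends next to it at -0.68. The dotted line lies above the marker median at each time too.

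Markers of the other cell types of the organ were read in the same way. Endothelial markers had median differences between -0.22 and 0.04 over the times, leukocyte markers between -0.42 and -0.23, smooth muscle markers between -0.17 and 0.45 and stromal markers between -0.19 and -0.09, with 7, 6, 6 and 6 genes analysed. In the test against 0 h 0 genes of the endothelial, leukocyte and smooth muscle lists passed, and 1 stromal gene, Fbln1, an extracellular matrix protein, fell by 0.60 ± 0.11 on 1 of its 4 analysed probe sets (SE, limma, adjusted p = 0.0308). Col1a2, a chain of type I collagen, rose over hours on the progesterone arrays (limma, slope 2.24 per 24 h, adjusted p = 0.0164) on 1 of 2 probe sets. Of all probe sets 2.69% were called against 0 h and 1.9% in that fit over hours. Mesothelial and adipocyte markers had 2 analysed genes each, with median differences of -0.49 to -0.10 and of -1.76 to -0.78 over the times. Adipoq, the adipocyte hormone adiponectin, had differences of -2.53 to -0.96 without passing the test (limma, adjusted p = 0.149).

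Other genes of the junction were taken from a list of 47, of which 19 were on the array and 15 were analysed. In the test against 0 h 0 of the 15 rose and 1 fell, where 2.69% of all probe sets were called. In the fits over hours on 6 and on 5 arrays 0 of the 15 passed, where 0.31% and 1.9% of all probe sets did. The gene that fell was Cldn5, the claudin of endothelium, with 10.13 log2 units at 0 h and 9.08, 8.79, 8.84, 8.65 and 8.84 at 6, 12, 15, 18 and 24 h. All 5 progesterone arrays were more than 2-fold below 0 h, a mean difference of -1.29 ± 0.16 (SE, limma, adjusted p = 0.0104). The 7 endothelial markers had a median mean difference of -0.07. Among those that did not pass, Cldn8 had a mean difference of -0.47 ± 0.19, F11r, the adhesion molecule JAM-A, one of -0.33 ± 0.12, and Ybx3, a transcription factor that binds Tjp1, one of 0.50 ± 0.15 (limma, adjusted p = 0.233, 0.178 and 0.127). These 3 were picked after their values were seen. The median over the 15 genes lay between -0.16 and -0.09 at the single times.

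The adherens junction, which sits just below the tight junction, was read from a list too. Of 12 listed genes 8 were analysed, and 1 passed the test against 0 h, where 2.69% of all probe sets did. Vcl, the actin-binding protein vinculin, rose by 0.95 ± 0.17 on 1 probe set (SE, limma, adjusted p = 0.0308) and had 0.40 ± 0.15 on the other (adjusted p = 0.188). Cdh1, the epithelial cadherin, was looked up after the values were seen and had a mean difference of -0.25 ± 0.18 (limma, adjusted p = 0.518). Of 20 listed transcription regulators of epithelial and mesenchymal state 10 were analysed, and 1, Klf5, a zinc finger factor of epithelia, fell by 0.68 ± 0.12 (SE, limma, adjusted p = 0.0308).

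**Figure D3:**
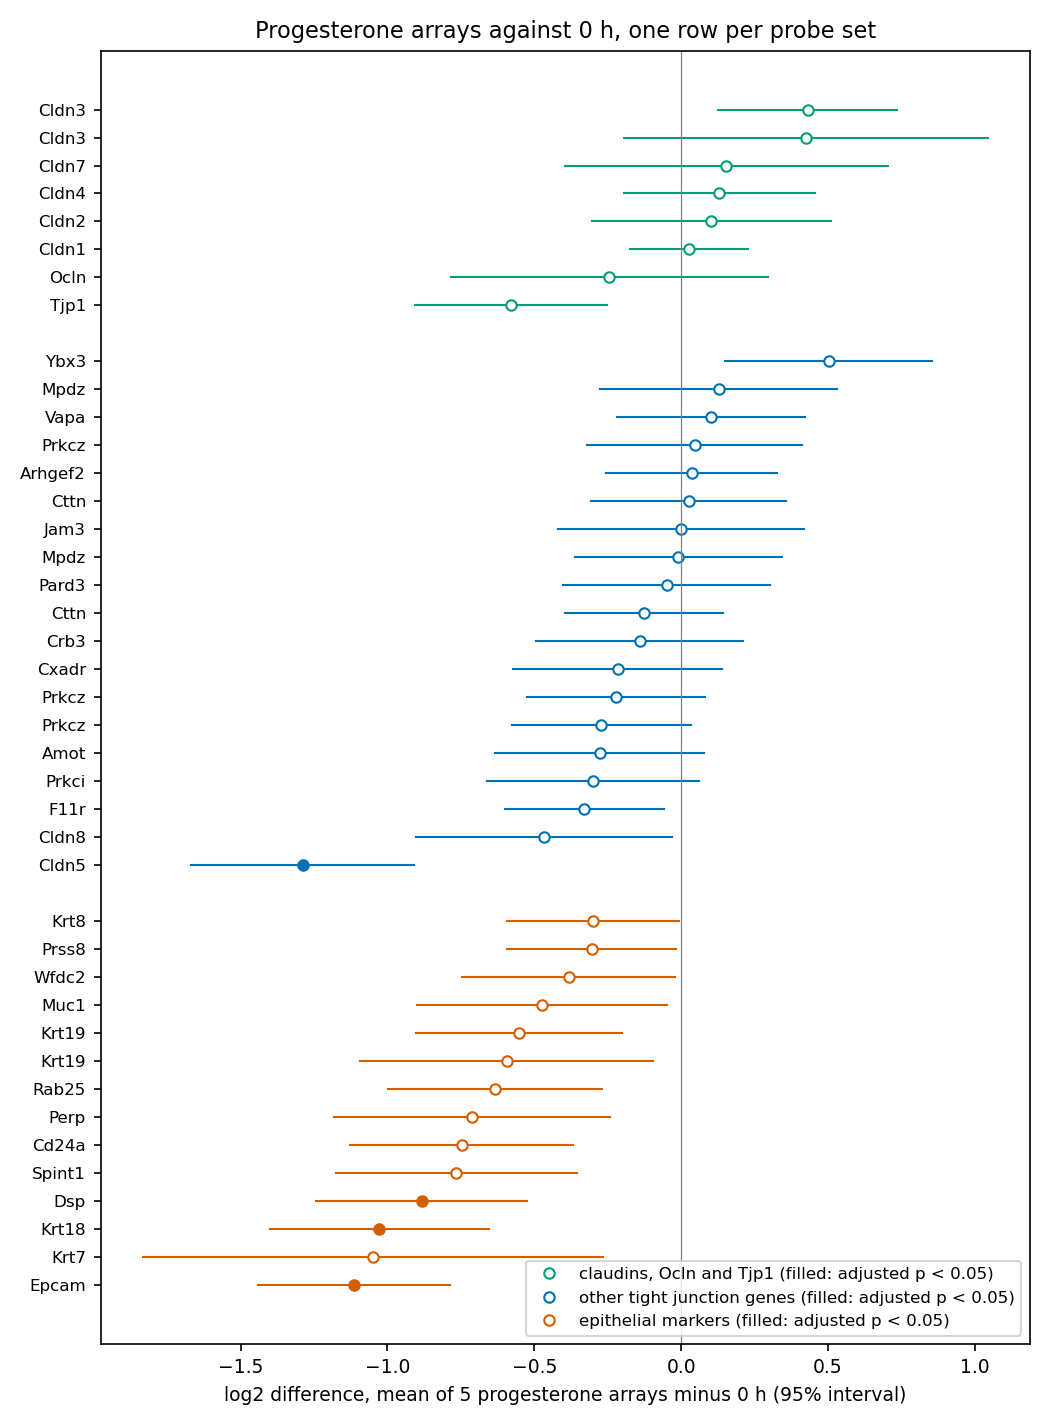
Mean log2 difference of the 5 progesterone arrays minus the 0 h array (horizontal axis; points) with its 95% limma interval (lines), 1 row per analysed probe set, for the claudins, Ocln and Tjp1, the other tight junction genes and the epithelial markers; filled points passed an adjusted p of 0.05. Cldn1, Cldn2, Cldn3, Cldn4 and Cldn7 lie between 0.03 and 0.43, and every epithelial marker lies at or below -0.30. Of the other claudins, Cldn8 lies at -0.47, and Cldn5 at -1.29 is the only filled point among the tight junction genes.

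No probe set of the 7 genes above the floor on all 6 arrays spanned 1 log2 unit, the limit set for a search of genes with a like pattern, so the limit was lowered to 0.5 after the values were seen. Of the 7 probe sets above the floor on all 6 arrays this left 5, each compared by Pearson correlation over the 6 arrays with 411 named probe sets that spanned at least 1 unit. Nearest to Tjp1 were Tgfbi, a secreted matrix protein, at 0.99, Med24, a Mediator subunit, at 0.99 and Abcb1a, a drug efflux pump, at 0.99. Nearest to Ocln were Wwc1 at 0.97, Reln at 0.94 and Aldh1a1, which makes retinoic acid, at 0.91. Nearest to the main probe set of Cldn3 were Nudt19 at 0.94, Hdc, which makes histamine, at 0.94 and Myd88, an innate immune adaptor, at 0.94. The second had Hopx, a homeodomain protein, at 0.97, Fkbp5, a co-chaperone of steroid receptors, at 0.94 and Plet1 at 0.92. Cldn7 came closest to Pdia4 and Pdia6, disulfide isomerases of the endoplasmic reticulum, at 0.89 and 0.81, and to Myrf at 0.78. With 6 arrays and 411 candidates such values describe the likeness only.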

How the data were processed

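RNA of whole mouse uterus was hybridized to 6 Affymetrix arrays, 1 per time. Each deposited value is a probe set's log2 expression: 2 raised to the values gave numbers with 4 decimals for 99.8% of values. The authors' columns share a lower limit of 5.39. The array maker's protocol was used for RNA and labelling, per the labels; for software and normalization, nothing is given in the labels. The 2% trimmed means of the columns lay within -4.10% to 3.42% of their median, so values were used as deposited. For the tests, values under the 40th percentile (6.60) were raised to it, which compresses low genes, and 7731 probe sets above it on at least 2 arrays were kept. limma 3.58.1 (R 4.3.3; lmFit, eBayes with an intensity trend) fitted the 5 progesterone arrays against 0 h, hours over 6 arrays, and hours over the 5 progesterone arrays, with 4, 4 and 3 residual degrees of freedom and Benjamini-Hochberg adjustment over all probe sets tested; p-values measure the spread between times, not between animals. Probe sets called "rose" or "fell" had an adjusted p below 0.05. The fits were tested on simulated data in which the 0 h array had the same spread as the others, so this does not check that assumption. Gene names came from the platform annotation; 10833 probe sets had 1 symbol. List medians used, per gene, the probe set with the highest mean. Genes of the lists were named if called in a fit or at least 2-fold from 0 h on 3 of 5 arrays. The members and lists were chosen with earlier results of these data known. Alternatives changed the floor, the filter, the normalization, the variance moderation and the fold, and left out each array. The number of arrays limits the precision of every value.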

Additional observations from a re-analysis of the deposited data

How the results depend on the processing

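Repeats of the 24 member values kept their side of the threshold and sign in 278 cases, changed sign in 11 and passed the threshold in 1. None changed sign under another floor, filter, normalization or variance moderation, and the one that passed was Tjp1 without the 6 h array (-0.63). Signs turned only when an array was left out, all in slopes that passed nothing. In the fit over 6 arrays the slopes ranged from -0.42 to 0.0077 for Cldn2, -0.57 to 0.34 and -0.16 to 0.40 for the second and main Cldn3 probe sets, -0.17 to 0.084 for Cldn4 and -0.14 to 0.21 for Cldn7. In the fit over 5 arrays they ranged from -0.038 to 0.15 for Cldn1 and -0.85 to 0.033 for Cldn7. Called against 0 h were 69 that rose and 139 that fell, against 97 and 122 after setting a common median, 98 and 134 after quantile normalization and 22 and 202 without a filter. Member probe sets called against 0 h numbered 0 to 1 with an array left out. Over all probe sets, calls against 0 h (208) ranged from 43 to 590 with an array left out, those over 6 arrays (24) from 0 to 147 and those over 5 (147) from 0 to 36. The fit over 6 arrays called 53 without a floor, 0 without a filter and 10 after quantile normalization; the fit over 5 called 285, 0 and 251, and 71 under a 60th percentile floor. Probe sets at 2-fold numbered 194, 276, 280, 227 and 189 at 6, 12, 15, 18 and 24 h; at 1.5-fold they numbered 798, 985, 1061, 868 and 749, and under a 60th percentile floor 118, 179, 149 and 116 at 6, 12, 18 and 24 h. The cause was not tested. No paired analysis was possible because each time has 1 array.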
